A study of Mus musculus with 6 samples.

Results

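T cells of the gut wall include the intraepithelial lymphocytes (IEL), which lie between the enterocytes of the villus, and the T cells of the lamina propria beneath them. The genes described here, 35 in number, are a given list of symbols that mark these cells: chains of the T cell receptor complex, co-receptors, signalling adaptors, homing and cytokine receptors, granule and effector molecules, transcription factors and a few genes of all blood cells. They were found by gene symbol on the array, with 1 probe set per gene, the brightest on average over all 6 arrays among probe sets that carry exactly 1 symbol. Of the 35 genes, 34 were measured, out of 18193 genes in all, and Lck was not analysed here.

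The study measured RNA from the distal jejunum of 6 mice on Affymetrix expression arrays, 1 array per animal. The 3 mutant mice had lost Hnf4a, a nuclear receptor gene of the gut epithelium, through a Cre recombinase driven by the 12.4-kb Villin promoter fragment. The 3 control mice were littermates of the mutants, and the sources used here do not say whether they carried the Cre. All 6 animals shared the floxed strain label B6.129X1(FVB)-Hnf4atm1.1Gonz/J, were 7 months old, lived in pathogen-free housing and received ketamine and xylazine before death. The Villin promoter is active in epithelial cells and not in lymphocytes, so the gene was deleted in the neighbours of the T cells and not by design in the T cells themselves. The labels call the samples biopsies of total jejunum and the design text places them in its distal part, with no sorting of cells stated. For every gene below, more cells of a type and more RNA per cell cannot be told apart.

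As background, a T cell recognises antigen through its receptor, which signals through the CD3 chains, and the CD4 or CD8 co-receptor brings a kinase to that complex. In the small intestine most IEL carry CD8. They are held in the epithelium by the integrin that Itgae encodes, which binds E-cadherin, and they store granzymes in cytotoxic granules. Epithelial cells feed them with cytokines such as interleukin-15, while interleukin-7 maintains T cells through the receptor that Il7r encodes.

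Hnf4a itself had a log2 signal of 8.83, 8.83 and 9.82 in mutants 1, 2 and 3, against 11.82, 11.76 and 11.57 in the controls. The groups did not overlap. Rank correlations between arrays lay between 0.984 and 0.993 over all genes, and no pair of arrays was identical. Some arrays stood apart before any T cell gene was considered. Pancreatic acinar transcripts had list means of 3.83 to 4.06 in mutants and of 3.92 and 3.97 in controls 1 and 2, but 7.80 in control 3. Mutant 2 held fat transcripts, with a list mean of 9.80 against 7.25 and 7.47 in the other mutants and 7.53 to 7.84 in the controls. Mutant 3 and control 1 carried Y-linked transcripts, with list means of 5.62 and 5.54 against at most 2.70 elsewhere. The 10 epithelial markers had list means of 12.07 to 12.24 in mutants and 12.12 to 12.15 in controls, and 0 of them passed limma's test (0 higher and 0 lower even without adjustment of p).

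T cell and IEL genes lay higher in the mutants as a group, but few of them passed the test. Of 34 genes, 29 had a higher mean in mutants, and the median log2 difference was 0.49, against -0.01 over all genes, of which 46.7% had a higher mean in mutants. In limma's moderated test with Benjamini-Hochberg adjustment over 18193 genes, 3 rose (Fermt3, Il7r and Slfn2), 0 fell and 31 did not pass, while 0.198% of all genes were called higher and 0.33% lower. At an unadjusted p under 0.05, 15 of the 34 lay higher and 0 lower, against 5.24% and 6.85% of all genes. The list was chosen with earlier results of these data known, so its shares here and below are descriptive and no test of the list. The median difference was 0.30 without control 2, 0.39 without mutant 2 and 0.60 without control 1. The count at an unadjusted p under 0.05 was 7 without control 2, 8 without control 3, 8 without mutant 2 and 22 without control 1. In these refits 4.02%, 3.33%, 4.30% and 4.79% of all genes lay higher at that level, in the same order. Without the arrays that carried pancreatic and fat transcripts, control 3 and mutant 2, the median was 0.36. There 4 of the 34 genes lay higher at that level, against 2.40% of all genes, and 0 were called.

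**Figure D1:**
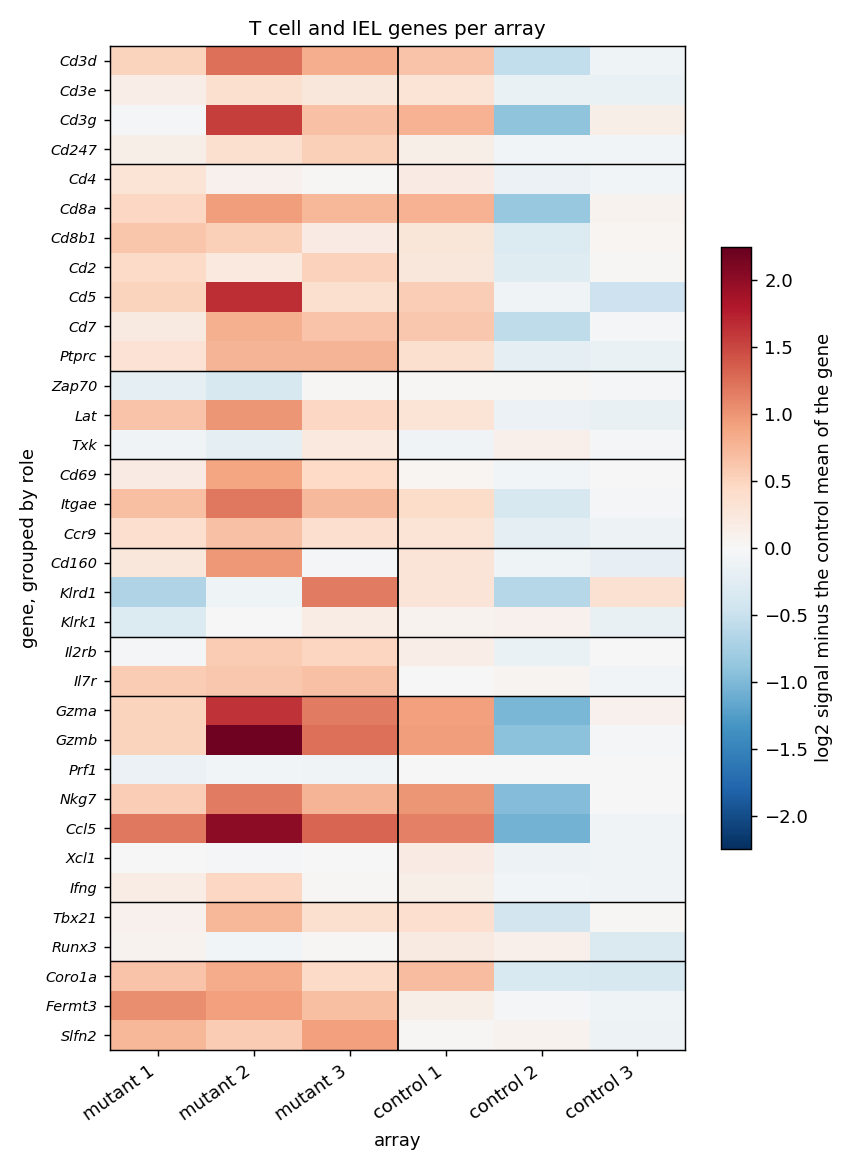
Log2 signal of the 34 measured T cell and IEL genes (rows, grouped by role) on each of the 6 arrays (columns, mutants left of controls), shown as the distance from the mean of the 3 controls on the log2 scale, with red for higher and blue for lower. Red runs through most rows of the mutants and of control 1, and control 2 is the bluest column in the rows of Gzma, Gzmb, Ccl5, Nkg7 and Cd8a.

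The regulatory sequence next to some of these genes is shown for the 3 that passed the test, and for Gzma and Gzmb, the granzyme genes with large differences. Each run is the 250 bases before the gene start, 5′ to 3′ on the gene's own strand, from RefSeq on GRCm38.p6, a build used for these sequences only. Capitals mark matches on either strand to 3 short motifs, namely TGTGGT of RUNX factors, AGGAAGT of ETS factors and GGTGTGA of T-box factors.
Fermt3 (chr19:7019470-7019719, minus strand): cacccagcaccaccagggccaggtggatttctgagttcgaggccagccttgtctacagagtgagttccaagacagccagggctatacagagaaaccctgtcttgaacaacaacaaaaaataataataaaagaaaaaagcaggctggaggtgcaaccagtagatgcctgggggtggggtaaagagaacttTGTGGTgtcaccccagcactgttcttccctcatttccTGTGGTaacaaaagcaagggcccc
Il7r (chr15:9529877-9530126, minus strand): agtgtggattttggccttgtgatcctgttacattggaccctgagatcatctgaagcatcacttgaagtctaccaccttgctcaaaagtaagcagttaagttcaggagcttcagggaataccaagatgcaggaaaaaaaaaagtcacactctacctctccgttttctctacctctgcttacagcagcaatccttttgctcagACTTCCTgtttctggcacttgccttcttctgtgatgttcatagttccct
Slfn2 (chr11:83064862-83065111, plus strand): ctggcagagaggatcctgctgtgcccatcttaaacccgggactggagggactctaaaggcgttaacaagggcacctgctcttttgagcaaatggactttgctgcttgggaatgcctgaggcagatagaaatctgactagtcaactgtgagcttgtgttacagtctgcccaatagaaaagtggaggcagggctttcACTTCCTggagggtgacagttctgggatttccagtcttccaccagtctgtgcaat
Gzma (chr13:113100982-113101231, minus strand): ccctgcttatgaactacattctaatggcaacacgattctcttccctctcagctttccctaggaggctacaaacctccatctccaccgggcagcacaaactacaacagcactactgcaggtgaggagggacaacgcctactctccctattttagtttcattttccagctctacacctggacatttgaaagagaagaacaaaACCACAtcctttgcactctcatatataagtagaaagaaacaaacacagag
Gzmb (chr14:56262335-56262584, minus strand): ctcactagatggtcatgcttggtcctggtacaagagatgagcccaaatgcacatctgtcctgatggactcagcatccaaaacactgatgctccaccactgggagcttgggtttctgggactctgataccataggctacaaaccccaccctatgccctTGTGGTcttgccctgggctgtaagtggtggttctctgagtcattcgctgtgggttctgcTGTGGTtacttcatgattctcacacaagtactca
The Fermt3 and Gzmb windows each held 2 RUNX matches on the plus strand of the gene. Il7r and Slfn2 each held 1 ETS match and 0 RUNX matches. Gzma held 1 RUNX match. Of the 25 members in the promoter table, 11 had the ETS motif (44% against 7.80% of 27025 promoters of the same length), 9 the RUNX motif (36% against 14.2%) and 2 the T-box motif (8% against 3.31%). A match is a stretch of letters and not a bound site, and the motifs did not overlap in these 5 windows.

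Fermt3, Il7r and Slfn2 rose, each with all mutants above all controls. Fermt3 encodes kindlin-3, which activates integrins in blood cells. Its log2 signal was 7.47, 7.34 and 7.10 in mutants 1, 2 and 3, against 6.56, 6.40 and 6.32 in controls 1, 2 and 3. That was 1.84-fold higher (log2 difference 0.88 ± 0.13 SE, 95% interval 0.59 to 1.17, limma adjusted p = 0.0307). Il7r, the interleukin-7 receptor chain of T cells and other lymphoid cells, read 6.37, 6.40 and 6.46 in mutants, against 5.80, 5.86 and 5.73 in controls. The spread within each group was small next to the difference of 0.61 ± 0.10 SE, or 1.53-fold (95% interval 0.39 to 0.83, limma adjusted p = 0.0434). Slfn2, a Schlafen gene that keeps mouse T cells quiescent, read 7.57, 7.40 and 7.75 in mutants, against 6.86, 6.90 and 6.71 in controls. It was 1.68-fold higher (log2 difference 0.75 ± 0.12 SE, 95% interval 0.47 to 1.03, limma adjusted p = 0.049). In all 3 genes, control 1 lay with the other controls. Passing the test favours this, since the test weighs the difference against the spread within groups.

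These 3 calls were close to the threshold. With 1 array left out, Fermt3 passed only without mutant 3 (limma adjusted p = 0.0233, otherwise up to 0.172), and Il7r and Slfn2 passed in none of the 6 refits (adjusted p up to 0.247 and 0.258). All 3 kept their direction, with differences of 0.80 to 0.98 for Fermt3, 0.58 to 0.65 for Il7r and 0.66 to 0.84 for Slfn2. A second probe set of Il7r read 4.56, 4.39 and 4.39 in mutants against 3.68, 3.88 and 3.59 in controls, a difference of 0.73. Fermt3 had 3 further probe sets, with differences of 0.72, 0.22 and -0.02. The last of them was under the array median on all 6 arrays. Here and below, this is the median of probe sets with 1 symbol, 4.50 to 4.53. The Fermt3 call was lost with the mean of its probe sets (limma adjusted p = 0.128). Fermt3 and Slfn2 are active in many blood cells besides T cells, and markers of other blood cells also lay higher in mutants, as given below. Their part in these results was not tested.

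**Figure D2:**
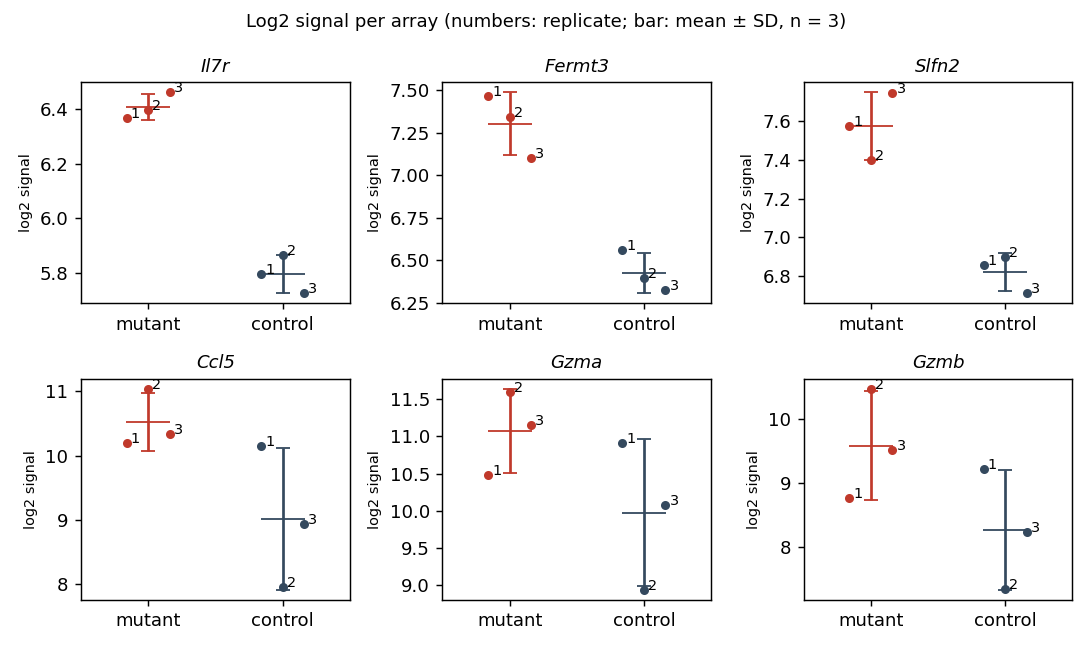
Log2 signal of 6 genes on each array (points, numbered by replicate, mutants left of controls), with bars for mean and SD of 3 animals and a separate vertical scale for each gene. For Il7r, Fermt3 and Slfn2 the 3 controls lie close together below the mutants, whereas for Ccl5, Gzma and Gzmb control 1 lies near or among the mutants and control 2 is lowest.

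The effector molecules held the largest differences of the list and the widest spread. Ccl5, a chemokine that T cells and natural killer (NK) cells secrete, read 10.20, 11.04 and 10.33 in mutants, against 10.15, 7.96 and 8.94 in controls. All mutants lay above all controls, but mutant 1 only just exceeded control 1 (10.20 and 10.15). The difference was 1.51 ± 0.49 SE, or 2.84-fold, with an interval of 0.38 to 2.64 (limma adjusted p = 0.27). Gzmb, a granzyme that starts apoptosis in target cells, read 8.77, 10.47 and 9.52 in mutants, against 9.22, 7.36 and 8.25 in controls. The groups overlapped, since control 1 lay above mutant 1, and the difference was 1.31 ± 0.52 SE (limma adjusted p = 0.362). Gzma, the other granzyme on the list, read 10.48, 11.60 and 11.15 in mutants, against 10.91, 8.94 and 10.08 in controls. Here too control 1 lay above mutant 1 (difference 1.10 ± 0.47 SE, limma adjusted p = 0.401). Nkg7, a protein of cytotoxic granules, read 6.32, 6.94 and 6.54 in mutants, against 6.76, 4.79 and 5.76 in controls. Only mutant 2 exceeded control 1, and the difference was 0.83 ± 0.43 SE (limma adjusted p = 0.508). Without control 2 these differences were 0.98 for Ccl5, 0.85 for Gzmb, 0.59 for Gzma and 0.34 for Nkg7. Without mutant 2 that of Gzmb was 0.87, and without control 1 that of Nkg7 was 1.32.

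For perforin, interferon gamma and lymphotactin the probe sets used lay under the array median (4.50 to 4.53) on all 6 arrays. None of these genes passed the test. Prf1, which encodes the pore-forming perforin, read 4.12, 4.19 and 4.18 in mutants, against 4.25, 4.25 and 4.26 in controls. All mutants lay below all controls, by 0.09 ± 0.09 SE (limma adjusted p = 0.778), on a probe set under the median signal of every array. A second Prf1 probe set differed by 0.27 the other way. Ifng, the cytokine gene of type 1 T cells, differed by 0.22 ± 0.14 SE (0.10 without mutant 2) and Xcl1, the lymphotactin gene, by -0.01 ± 0.11 SE (limma adjusted p = 0.59 and 0.992). Both were likewise under the median on all 6 arrays, and how far such signals stand above background was not tested. A signal under the median on all 6 arrays was seen for 10 of the 34 genes, while 21 lay above it on all 6. The 10 were Cd247, Cd8b1, Cd2, Txk, Cd69, Klrk1, Prf1, Xcl1, Ifng and Tbx21.

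The CD3 chains had higher means in mutants, with control 1 above at least 1 mutant for all but Cd247. Cd3d, the delta chain, read 6.27, 7.01 and 6.59 in mutants, against 6.41, 5.21 and 5.67 in controls. Control 1 lay between mutants 1 and 3 (difference 0.86 ± 0.30 SE, limma adjusted p = 0.303). Cd3g, the gamma chain, read 4.92, 6.52 and 5.61 in mutants, against 5.75, 4.05 and 5.08 in controls. Its groups overlapped widely, and its difference of 0.73 ± 0.49 SE was no larger than the spread within the groups (SD 0.80 and 0.86 for mutants and controls). Cd3e, the epsilon chain, read 6.30, 6.50 and 6.39 in mutants, against 6.44, 5.99 and 5.98 in controls, a difference of 0.25 ± 0.14 SE. Cd247, the zeta chain, differed by 0.34 ± 0.13 SE on a probe set under the array median throughout. All mutants lay above all controls for it, but mutant 1 only just exceeded control 1 (3.966 and 3.961). None of the 4 chains passed the test, and their median difference was 0.54. The Cd3g difference was 0.27 without control 2, 0.31 without mutant 2 and 1.12 without control 1, that of Cd3e was 0.41 without control 1, and that of Cd247 was 0.11 with the mean of its 4 probe sets.

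All 7 co-receptors and surface antigens had a higher mean in mutants, and 0 passed the test. Cd8a read 6.27, 6.73 and 6.55 in mutants, against 6.58, 4.94 and 5.87 in controls. Control 1 lay above all mutants but mutant 2, and the difference was 0.72 ± 0.36 SE (limma adjusted p = 0.484), or 0.29 without control 2 and 1.11 without control 1. Its other probe sets differed by 0.69, 0.41, 0.15 and 0.02, and their mean with the one used by 0.40. Cd8b1, the beta chain found on conventional CD8 T cells, differed by 0.45 ± 0.18 SE (0.29 without control 2), at signals under the array median on all 6 arrays. Cd4 read 6.29, 6.08 and 6.01 in mutants, against 6.17, 5.85 and 5.92 in controls. Its difference of 0.14 ± 0.13 SE had an interval of -0.15 to 0.44, against -0.10 to 1.54 for Cd8a, and whether they differ was not tested. The Cd4 difference was 0.064 without mutant 1, 0.082 without control 2 and 0.24 without control 1. Cd7, abundant on IEL, differed by 0.55 ± 0.29 SE (0.26 without control 2 and 0.86 without control 1) and the adhesion receptor gene Cd2 by 0.39 ± 0.16 SE (0.25 without control 2). The Cd2 signal was under the array median on all 6 arrays. Cd5, a brake on receptor signalling, read 4.22, 5.39 and 4.09 in mutants, against 4.27, 3.64 and 3.25 in controls. Mutant 2, the array with fat transcripts, was highest, and control 1 lay above the other mutants. The difference of 0.84 ± 0.37 SE was 0.43 without mutant 2 and 0.20 without control 3 and mutant 2. Ptprc, which encodes CD45 of all white blood cells, read 8.80, 9.25 and 9.25 in mutants, against 8.85, 8.28 and 8.33 in controls. That was a difference of 0.62 ± 0.19 SE (limma adjusted p = 0.243), with control 1 just above mutant 1.

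In the homing and retention genes the mutants and controls did not overlap, although none of the 3 passed the test. Itgae, the integrin chain of IEL that binds E-cadherin, read 6.61, 7.12 and 6.66 in mutants, against 6.33, 5.56 and 5.89 in controls. All mutants lay above all controls, and the difference was 0.87 ± 0.21 SE, or 1.82-fold (95% interval 0.37 to 1.36, limma adjusted p = 0.154). Its second probe set differed by 0.85. Ccr9, the receptor for the gut chemokine CCL25, read 5.95, 6.24 and 5.94 in mutants, against 5.88, 5.37 and 5.46 in controls (difference 0.47 ± 0.16 SE, limma adjusted p = 0.28). Its other probe sets, all under the array median, differed by 0.27, 0.17, 0.14 and -0.19, and averaging all of them gave 0.17. Cd69, a retention and activation marker, differed by 0.51 ± 0.17 SE at signals under the array median, or by 0.32 without mutant 2. Mutants lay wholly above controls in 9 of the 34 genes, against 6.93% of all genes, and wholly below in 1, against 10.2%.

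Signalling genes were mixed. Lat, the adaptor that relays receptor signals, read 6.44, 6.79 and 6.26 in mutants, against 6.10, 5.66 and 5.63 in controls. The groups did not overlap, and the difference was 0.70 ± 0.18 SE, or 1.62-fold (limma adjusted p = 0.168). Zap70, the kinase that binds phosphorylated CD3 chains, read 7.10, 6.93 and 7.31 in mutants, against 7.32, 7.32 and 7.25 in controls. Its difference was -0.18 ± 0.12 SE, while its other probe sets differed by 0.05 and 0.32, so the direction of Zap70 depended on the probe set. Txk, a kinase of the Tec family, differed by -0.03 ± 0.13 SE, at signals under the array median on all 6 arrays.

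NK-type receptors showed no common direction. Klrd1, which encodes CD94, read 5.01, 5.59 and 6.85 in mutants, against 5.98, 5.05 and 6.02 in controls. Mutant 3 was highest and mutant 1 lowest of all 6, and the difference was 0.13 ± 0.45 SE. The Klrd1 difference was -0.38 without mutant 3 and 0.54 without mutant 1. Cd160, a receptor for HVEM on IEL, read 5.48, 6.21 and 5.18 in mutants, against 5.52, 5.14 and 5.04 in controls. Mutant 2 was the only mutant above control 1, and the difference of 0.39 ± 0.25 SE was 0.10 without mutant 2, 0.61 without mutant 3 and 0.0044 without control 3 and mutant 2. Klrk1, which encodes NKG2D, differed by -0.05 ± 0.15 SE, at signals under the array median on all 6 arrays. Il2rb, the receptor chain shared by interleukin-2 and interleukin-15, read 4.64, 5.28 and 5.18 in mutants, against 4.84, 4.54 and 4.70 in controls (difference 0.34 ± 0.18 SE, limma adjusted p = 0.508), with 0.22 without mutant 2 and 0.53 without mutant 1. The transcription factor genes Tbx21, which encodes T-bet, and Runx3, which directs CD8 T cell fate, differed by 0.40 ± 0.23 SE and 0.01 ± 0.15 SE. The Tbx21 signal was under the array median on all 6 arrays, and its difference was 0.19 without control 2 and 0.23 without mutant 2. A second Runx3 probe set differed by 0.67, with 4.21, 4.56 and 4.36 in mutants against 3.97, 3.62 and 3.52 in controls. Coro1a, an actin regulator of blood cells, read 8.14, 8.34 and 7.93 in mutants, against 8.21, 7.16 and 7.15 in controls, a difference of 0.63 ± 0.27 SE (0.98 without control 1), and a second bright probe set differed by 0.82.

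**Figure D3:**
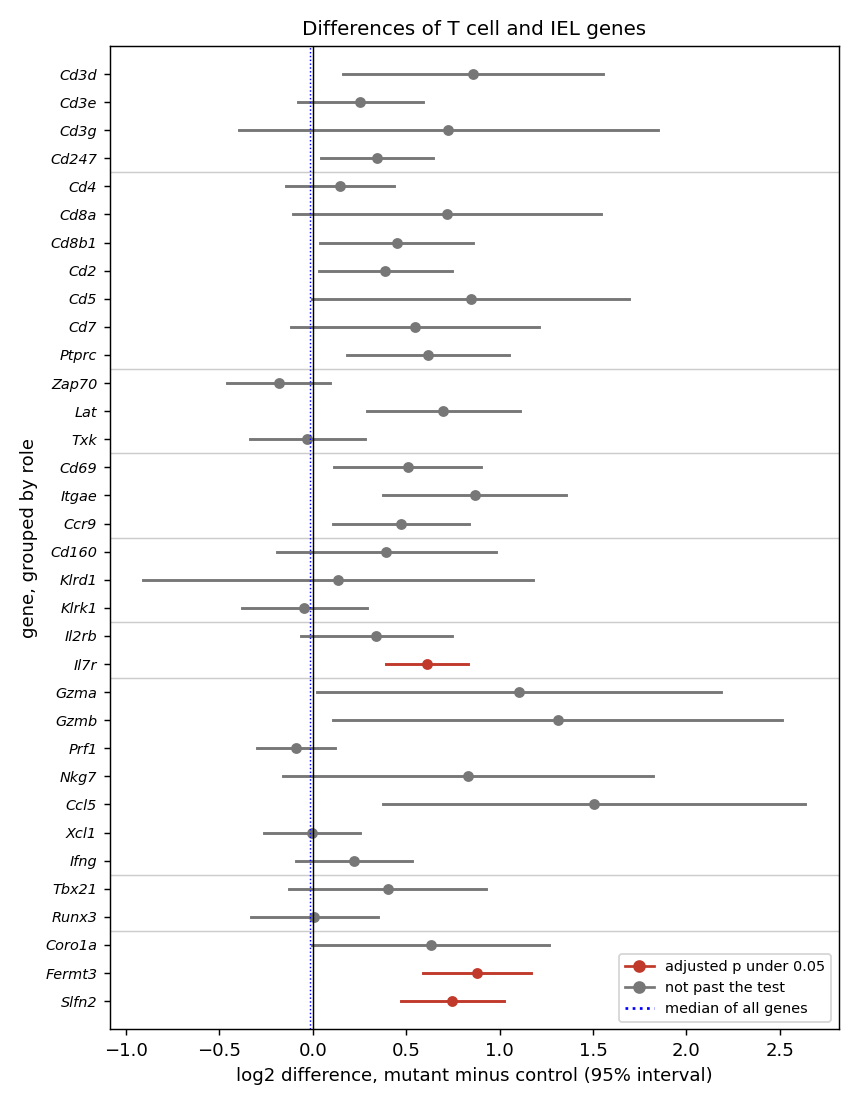
Log2 difference, mutant minus control, for the 34 genes (points) with 95% intervals from limma (lines), grouped by role, with the median of all genes as a dotted line. The intervals of Il7r, Fermt3 and Slfn2, in red, are narrow and lie above 0, and the wider intervals of Ccl5, Gzmb and Gzma reach up to 2.64, 2.51 and 2.18.

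Across probe sets, 14 of the 34 genes had more than 1. Of their 28 other probe sets, 20 had the direction of the one used, 7 lay higher and 0 lower at an unadjusted p under 0.05. Among the 11 that were not under the array median on all 6 arrays, 10 had that direction. Probe sets of 1 gene share the same RNA and are not replicates.

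Arrays of the same group differed from each other in a common way over the list. The mean log2 signal over the 34 genes was 5.76, 6.16 and 5.96 in mutants 1, 2 and 3, against 5.82, 5.15 and 5.39 in controls 1, 2 and 3. Control 1 thus lay above mutant 1 and below the others. Mutant 2 was the highest mutant in 20 of the 34 genes (58.8%, against 34.9% of all genes). Control 1 was the highest control in 27 (79.4%, against 36.7% of all genes), and control 2 the lowest in 20 (58.8%, against 33.3%). The mutant mean exceeded control 2 by a median of 0.72 over the list and control 3 by 0.58, but control 1 by 0.12, against -0.02 to -0.01 over all genes. The SD was larger in controls than in mutants for 20 of the 34 genes (58.8%, against 36.8% of all genes), among them Ccl5 (0.45 in mutants and 1.10 in controls), Nkg7 (0.31 in mutants and 0.98 in controls) and Cd8a (0.23 in mutants and 0.82 in controls). Control 1 was 1 of the 2 arrays with Y-linked transcripts. With these transcripts as a covariate the median over the list was 0.49 and 3 genes passed. The other such array was mutant 3, and the Y-linked list mean was 3.56 in the mutant group and 3.59 in the control group. A covariate so balanced could hardly move the median, so this fit does not settle the part of sex.

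Other genes of T cell signalling and homing lay on the same side with smaller differences. Of 25 measured genes of T cell receptor signalling and costimulation, 24 had a higher mean in mutants (96%, against 46.7% of all genes). Of these 25, 8 lay higher (32%) and 0 lower at an unadjusted p under 0.05, and 0 were called (median 0.23). Over all genes 5.24% lay higher and 6.85% lower at that level, to be set beside this list and those below. Fyn, a kinase of the Src family, read 7.38, 7.56 and 7.34 in mutants, against 6.89, 6.87 and 6.87 in controls, a difference of 0.55 ± 0.10 SE (limma adjusted p = 0.0745). Vav1, an exchange factor of blood cells, differed by 0.77 ± 0.16 SE, the adaptor gene Fyb by 0.49 ± 0.14 SE and the costimulator gene Icos by 0.49 ± 0.15 SE. Among 12 residency and gut homing genes, 6 lay higher at that level and 0 were called (median 0.38), with Itgb7, which encodes the partner chain of the Itgae product, at 0.62 ± 0.13 SE (limma adjusted p = 0.0912). Xcr1, a receptor gene of dendritic cells, differed by 0.37 ± 0.11 SE, at signals under the array median on all 6 arrays. Itgb2 and Cxcr3 differed by 0.50 ± 0.19 SE and 0.39 ± 0.14 SE. Of 20 NK receptor and cytotoxic genes, 3 lay higher, 1 lower and 0 were called (median 0.11). Gzmk differed by 0.68 ± 0.17 SE, Srgn, the granule proteoglycan gene, by 0.74 ± 0.20 SE, Serpinb9 by 0.66 ± 0.20 SE and Lamp1, a lysosomal gene of most cells, by -0.37 ± 0.11 SE. The CD4 helper and regulatory list had a median of 0.02 over 14 genes (-0.014 without control 2 and 0.061 without control 1), with 2 higher, 1 lower and 0 called. Tnfrsf18, Stat4, Stat6 and Gata3 differed by 0.47, 0.84, -0.25 and 0.24, with Gata3 under the array median on all 6 arrays.

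Genes of signals that epithelium and stroma offer to IEL had no common direction. Of 15 measured genes in limma's test 3 lay higher and 2 lower before p was adjusted, 0 were called, and the median was 0.00 (-0.11 without mutant 3 and 0.22 without mutant 1). Il15, the cytokine gene on which many IEL depend, read 5.20, 6.09 and 5.42 in mutants, against 6.43, 7.12 and 6.94 in controls. All mutants lay below all controls, by 1.26 ± 0.25 SE or 2.39-fold (limma adjusted p = 0.0907), the opposite direction to the T cell genes. Cdh1, which encodes the E-cadherin that the Itgae integrin binds, differed by 0.33 ± 0.10 SE. The chemokine genes Cxcl9 and Cxcl10, which interferon gamma induces, differed by 1.43 ± 0.43 SE and 0.80 ± 0.24 SE. Over 15 interferon gamma induced genes the typical (median) difference was 0.78, with control 2 left out 0.43 and with control 1 left out 1.25, and 7 higher at that level and 0 called. Gbp6, Gbp3, Nlrc5 and Gbp2 of this list differed by 1.70, 0.56, 1.65 and 1.17. The list means were 8.63, 9.13 and 9.06 in mutants, against 8.82, 7.60 and 7.95 in controls, so that control 1 again lay among the mutants.

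**Figure D4:**
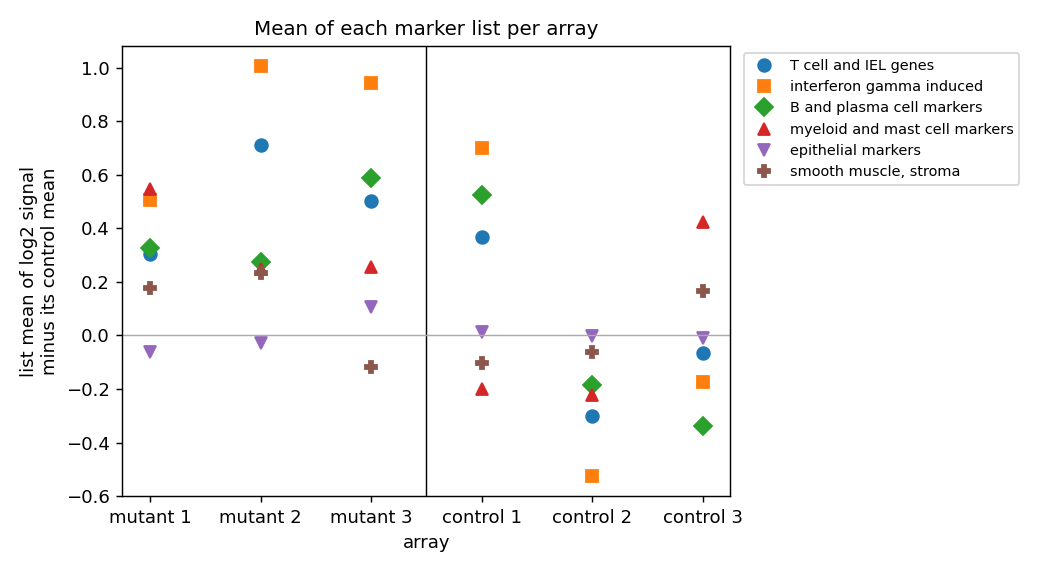
Mean log2 signal of 6 gene lists on each array, minus the mean of the 3 controls for that list (vertical axis, log2 scale), with mutants left of controls and 1 symbol per list. The T cell, interferon gamma and B cell lists are low in controls 2 and 3 and high in control 1, whereas epithelial markers lie near 0 on every array.

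Markers of other cells of the gut wall were read beside these results. B and plasma cell markers had list means of 6.84, 6.79 and 7.10 in mutants, against 7.04, 6.33 and 6.17 in controls. Of these 12 genes, 11 had a higher mean in mutants (against 46.7% of all genes). At an unadjusted p under 0.05, 2 lay higher (16.7%, against 5.24% of all genes), and 0 were called (median 0.30). Ms4a1, which encodes the B cell antigen CD20, read 4.47, 4.99 and 5.63 in mutants, against 5.96, 3.13 and 2.58 in controls, highest in control 1. Sdc1, Tnfrsf17 and Pou2af1 differed by 0.87, 0.28 and 0.53. Sdc1 read 8.76 to 9.96 over the 6 arrays, and which cells gave this signal was not tested. Lymphoid tissue and naive lymphocyte genes had list means of 4.51, 4.55 and 4.72 in mutants, against 4.53, 4.10 and 4.04 in controls. Of 10 genes, 4 lay higher and 0 were called (median 0.15, or 0.37 without control 1 and 0.08 without control 2), with the follicle chemokine gene Cxcl13 at 1.36 ± 0.35 SE and Klf2, Satb1 and Ltb at 0.82, 0.64 and 0.68. Myeloid and mast cell markers had list means of 6.25, 5.95 and 5.96 in mutants, against 5.51, 5.49 and 6.13 in controls, with 4 of 14 higher, 1 lower and 0 called (median 0.23). Cd14, Csf1r, Fcgr1 and Lyz2 differed by 0.60, 0.40, 0.37 and -0.35. Smooth muscle and stromal markers had list means from 9.67 to 10.02 in mutants and from 9.68 to 9.95 in controls, with 0 of 10 past the test. Of these 10 genes, 9 had a higher and 1 a lower mean in mutants (median 0.06), against 46.7% of all genes with a higher mean. The B cell and lymphoid lists, like the T cell genes, read highest among controls in control 1, and the part of lymphoid tissue in the biopsies was not tested.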

How the data were processed

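Log2 signals of 6 arrays, with a value for each probe set, were used as the authors deposited them. How these were background-corrected, summarised and normalised was not found in the labels or the file header, and the range of the values showed the log2 scale. Array medians over all probe sets lay between 3.93 and 3.98, so no further normalisation was applied. Genes described as under the array median were compared with the median of probe sets with 1 symbol, 4.50 to 4.53. Of 45101 probe sets, 64 control probe sets were left out, and 34945 carried 1 gene symbol in the platform annotation, 932 several and 9160 none. Those with 1 symbol gave 18193 genes. Some probe sets can bind related transcripts, which was not checked. Groups were taken from the sample titles. The fit used limma 3.58.1 in R 4.3.3 (lmFit and eBayes, group as the only term, two-sided), Benjamini-Hochberg adjustment over all genes and a threshold of 0.05. The procedure was tested on simulated data with independent noise per gene and array, which cannot speak to shifts that many genes share on an array. P-values measure the spread between 3 animals a group, and the number of arrays limits the precision. The covariate for sex used 3 Y-linked genes.

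The members and the other gene lists, 14 in number, were chosen with earlier results of these data known. All members are named, together with Hnf4a and the 4 genes with the smallest p of each other list that is described, except that the epithelial, stromal, pancreatic, fat and Y-linked lists are given as list means. The second probe sets shown were chosen after their values were seen. The alternatives tried, 16 in number, covered normalisation, dim probe sets, probe set choice, variance model, array weights, replicate block, sex and the omission of arrays.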

Additional observations from a re-analysis of the deposited data

How the results depend on the processing

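The genes were refitted under 16 alternatives, of which the filter on dim probe sets tested only 23 of the 34. In every alternative that tested them, 27 of the 34 genes kept their direction, and 0 of the genes not called reached the threshold. The variance model, the replicate block and the filter on dim probe sets leave each difference as it was, so no direction could change there. The median over the genes stayed between 0.30 and 0.70. The count of called members was 0 with the probe set of highest variance, 0 without control 3 and mutant 2 together, 1 with the replicate block and 0 to 1 with 1 array left out, and it was 2 or 3 otherwise. The count over all genes was 150 with array weights, 62 with the replicate block, 196 with the Y-linked covariate, 4 without control 3 and mutant 2 together and 22 to 96 with 1 array left out. Deviations of same-numbered arrays from their group means correlated at 0.07, 0.07 and -0.02 over genes, and control 3 correlated best with mutant 2 (0.13). These values cannot settle whether the samples were paired, as each deviation is taken from a mean of only 3 arrays. The direction changed for 7 genes, all with differences between -0.18 and 0.13 in the fit to all arrays. Those were Zap70 and Prf1 with the mean of the probe sets (0.062 and 0.090) and with the most variable probe set (0.32 and 0.27), Xcl1 with centred arrays (0.00039) and array weights (0.016), Klrk1 with array weights (0.000093), and Txk and Runx3 without control 3 and mutant 2 together (0.054 and -0.11). With 1 array left out the ranges were -0.15 to 0.084 for Klrk1, -0.15 to 0.11 for Runx3, -0.15 to 0.066 for Txk, -0.059 to 0.088 for Xcl1 and -0.38 to 0.54 for Klrd1. The cause of these changes was not tested, apart from the fewer arrays in the refits that leave some out. Signals under the array median limit what can be read from 10 of the 34 genes.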
